A study of Mus musculus with 32 samples.

Results

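The plasma cell genes described here are 10 genes chosen by symbol as markers of antibody-secreting plasma cells, out of the 32285 genes counted in whole mouse bladders. They are Jchain, Mzb1, Derl3, Xbp1, Prdm1, Irf4, Pou2af1, Tnfrsf17, Tnfrsf13b and Sdc1. All 10 were matched by Ensembl identifier to a row of the count table, and all 10 had enough counts to be tested in every comparison. The study asked how the female mouse bladder changes with age and with a senolytic drug pair. Bulk total RNA was sequenced from 32 bladders of female C57BL/6 mice. Untreated mice were 2 months (young, n = 6), 10 months (middle-aged, n = 5) or 26 months old (old untreated, n = 6). The other 26-month-old mice were gavaged on 3 days a month from 21 months of age. They received water (n = 5), vehicle, which is the lipid and ethanol carrier of the drugs (n = 4), or dasatinib at 5 mg/kg/day with quercetin at 50 mg/kg/day in that vehicle (D+Q, n = 6). The water and vehicle mice therefore share the handling of the D+Q mice, and the vehicle mice share the carrier as well. A whole bladder holds urothelium, muscle, stroma, vessels and immune cells in a single library, so fewer cells of a type and less RNA per cell cannot be told apart.

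Plasma cells are the end stage of the B-cell lineage. In them IRF4 and Blimp-1, the product of Prdm1, replace the B-cell programme, and XBP1 enlarges the endoplasmic reticulum (ER) so that antibody can be secreted in bulk. The survival cytokines BAFF and APRIL reach these cells through the receptors BCMA, encoded by Tnfrsf17, and TACI, encoded by Tnfrsf13b. At mucosal surfaces the joining chain, encoded by Jchain, links IgA and IgM into polymers that the polymeric immunoglobulin receptor carries across the epithelium.

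Several of these proteins act on promoters, so the promoters of the members were searched for the motifs of their pathway. RefSeq promoters of GRCm38.p6, from 250 bases before to 50 bases after the gene start, were matched for 9 of the 10 members. The Prdm1 window, chr10:44458699-44458998 on the minus strand, lies inside the counted gene (chr10:44437177-44528501) and not at its upstream end. Jchain is shown because it encodes the secreted product, and Derl3, Pou2af1 and Tnfrsf17 because each holds a pathway motif. Capitals mark the ER stress element in Derl3, the core of the unfolded protein response element in Pou2af1 and the interferon-stimulated response element, a site type bound by IRF proteins, in Tnfrsf17.
Jchain, chr5:88527848-88528147, minus strand: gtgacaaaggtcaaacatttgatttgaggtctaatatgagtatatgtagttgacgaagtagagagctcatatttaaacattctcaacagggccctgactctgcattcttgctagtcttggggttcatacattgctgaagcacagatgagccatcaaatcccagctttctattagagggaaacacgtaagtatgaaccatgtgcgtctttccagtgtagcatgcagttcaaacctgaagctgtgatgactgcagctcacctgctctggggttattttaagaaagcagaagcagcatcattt
Derl3, chr10:75893148-75893447, plus strand: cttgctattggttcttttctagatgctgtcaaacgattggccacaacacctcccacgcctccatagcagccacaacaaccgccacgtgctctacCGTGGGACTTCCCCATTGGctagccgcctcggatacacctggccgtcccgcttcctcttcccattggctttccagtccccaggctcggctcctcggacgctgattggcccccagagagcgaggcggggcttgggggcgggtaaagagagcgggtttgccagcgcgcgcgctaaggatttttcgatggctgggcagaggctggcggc
Pou2af1, chr9:51213440-51213739, plus strand: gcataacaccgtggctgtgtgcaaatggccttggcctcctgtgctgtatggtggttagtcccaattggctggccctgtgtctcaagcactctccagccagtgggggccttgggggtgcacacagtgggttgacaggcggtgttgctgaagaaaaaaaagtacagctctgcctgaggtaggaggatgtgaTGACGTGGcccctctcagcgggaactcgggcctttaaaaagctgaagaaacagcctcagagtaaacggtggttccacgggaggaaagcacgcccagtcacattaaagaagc
Tnfrsf17, chr16:11313559-11313858, plus strand: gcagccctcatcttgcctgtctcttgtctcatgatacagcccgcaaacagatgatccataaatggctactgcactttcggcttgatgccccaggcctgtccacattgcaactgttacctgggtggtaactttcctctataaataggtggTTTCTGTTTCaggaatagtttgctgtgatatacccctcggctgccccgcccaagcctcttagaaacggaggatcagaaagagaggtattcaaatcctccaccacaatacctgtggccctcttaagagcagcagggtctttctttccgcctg

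Both strands of the 32851 RefSeq promoters were searched in the same way. The ER stress element, which is CCAAT, 9 bases of any kind and CCACG, lay in 0.119% of all promoters and in 1 of the 9 member promoters, that of Derl3, on the minus strand from base -156 to base -138. Its part CCACG, which also lies inside the full element, was common and lay in 32.8% of all promoters and in 5 of the 9, those of Prdm1, Irf4, Pou2af1, Derl3 and Sdc1. The core TGACGTGG lay in 0.676% of all promoters and in that of Pou2af1 alone among the members. The interferon-stimulated response element, which is GAAA, 2 bases of any kind and GAAA, lay in 3.44% of all promoters and in that of Tnfrsf17, and the E-box core CACGTG lay in 7.15% and in that of Derl3. The octamer ATGCAAAT, the letters read by the OCT factors that the Pou2af1 product assists, lay in 1.74% of all promoters and in none of the 9 member windows. These matches describe letters only.

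The libraries held 15088372 to 52650259 counts, so that 3 counts, taken as the floor of detection, stood at 0.0571 to 0.203 CPM. CPM are counts scaled to the library size after correction by TMM, the trimmed mean of M values. The labelled tissue held its own markers, with 16 urothelial genes summing to 6967 to 8996 CPM and 6 smooth muscle genes to 23610 to 37950 CPM. The labels give no sequencing batch. The replicate numbers mark separate bladders, and no pair within a group had identical counts. Immunoglobulin genes took 0.00258% to 0.00669% of all counts in young bladders, 0.00776% to 0.0688% in middle-aged and 0.375% to 2.81% in old untreated bladders. Vehicle replicate 1 stood apart from the other bladders of its age at 0.0245%, against 0.259% to 2.81% in the other 20 bladders of 26 months. D+Q replicate 6 had the lowest and old untreated replicate 6 the highest share among those 20. Calls of members and values of Jchain that turned without one of these 3 bladders are given with and without it.

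The members spread over a wide range of levels in the young bladder, from genes near the floor to genes that were well expressed there. Per length, as TPM, the counts scaled by exon length and by library, the levels in young bladders ran in the order Sdc1, Xbp1, Prdm1, Irf4, Tnfrsf13b, Jchain, Tnfrsf17, Derl3, Mzb1 and Pou2af1. Sdc1 stood at 295 ± 33.6 TPM (SD, n = 6) and Xbp1 at 166 ± 13.7, while Prdm1 stood at 4.59 ± 0.923, Jchain at 1.90 ± 0.883 and Pou2af1 at 0.414 ± 0.221. In old untreated bladders the level of Jchain was 380 ± 284 TPM (SD, n = 6), beside 332 ± 38.2 for Sdc1 and 205 ± 26.7 for Xbp1. Mzb1 followed at 62.6 ± 38.9, Pou2af1 at 41.1 ± 18.2, Derl3 at 19.4 ± 13.4, Irf4 at 16.9 ± 7.83, Tnfrsf13b at 13.3 ± 4.48, Prdm1 at 7.65 ± 1.90 and Tnfrsf17 at 4.55 ± 3.57 TPM. By mean, Jchain stood sixth in the young order and first in the old one, but its first place rested on old untreated replicate 6. Jchain was above Sdc1 in 2 of the 6 old untreated bladders, its median was 264 TPM against 329 for Sdc1, and without replicate 6 the means were 271.5 ± 114 and 338 ± 38.9 TPM (SD, n = 5). Among neighbours in the old order only Sdc1 and Xbp1, and Xbp1 and Mzb1, differed by more than the sum of their SDs, and in the young order only Sdc1 and Xbp1, and Xbp1 and Prdm1, did.

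**Figure D1:**
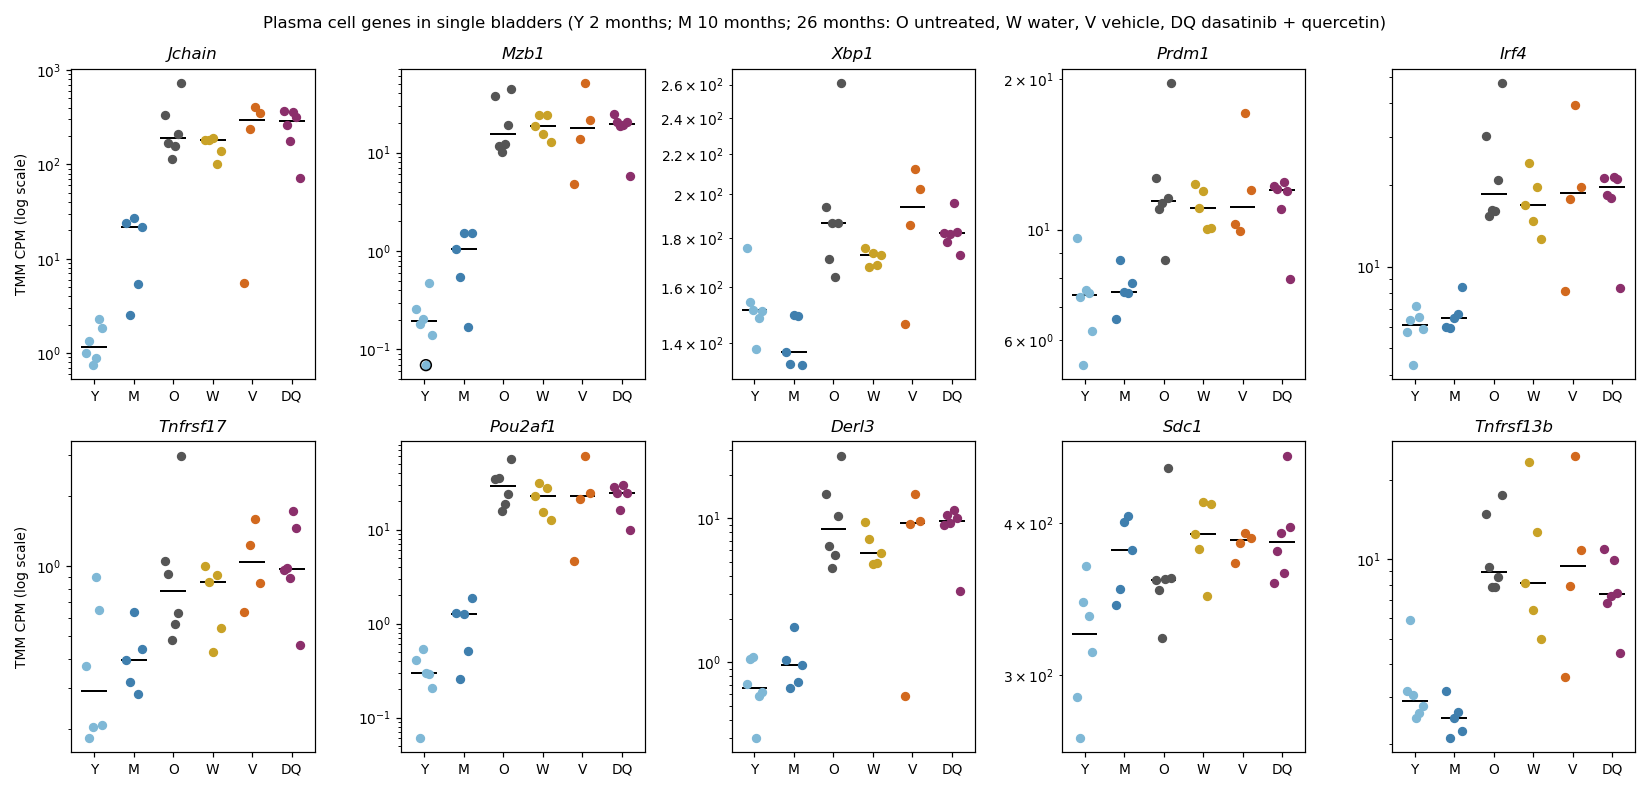
TMM CPM (vertical axes, log scale, each gene with its own range) of the 10 plasma cell genes in each of the 32 bladders, by group (horizontal axis). Points are bladders, bars are group medians, and the ringed point marks a bladder with 0 counts, drawn below the lowest measured value; 8 genes lie higher in every old untreated bladder than in every middle-aged one, whereas Sdc1 and Tnfrsf17 overlap.

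Jchain, the secreted product among the members, rose at both age steps. It stood at 0.746 to 2.29 CPM in young bladders, with a median of 1.17. In the 5 middle-aged bladders it stood at 23.8, 2.51, 27.02, 5.34 and 21.5 CPM, so that every one lay above every young bladder while the highest middle-aged value was 10.75 times the lowest. In old untreated bladders the lowest, median and highest values were 113, 189 and 734 CPM, with no overlap with the middle-aged group. The log2 fold change was 3.48 (SE 0.55, edgeR adjusted p = 0.0031) from young to middle-aged and 4.18 (SE 0.65, edgeR adjusted p = 0.000619) from middle-aged to old untreated. Over the whole span, in a fit of the 3 untreated ages, it was 7.62 (SE 0.69, edgeR adjusted p = 3.43e-07). Jchain lies at chr5:88519809-88527891 of mm10 on the minus strand, and no exon of another annotated gene overlaps its exons, which holds for each of the 10 members.

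Across the early step, 3 of the 10 members were higher in middle-aged than in young bladders and none was lower, where 4.96% of the 16754 genes tested were higher and 5.85% lower. Jchain was the 1 member whose groups did not overlap, as in 4.34% of all genes with a higher middle-aged group. The other 2 were Mzb1, whose product aids antibody assembly in the ER, and Pou2af1, which encodes a B-lineage coactivator. Mzb1 stood at 0 to 0.470 CPM in young bladders (median 0.193), and 2 of these 6 were at or under the floor. It stood at 1.05, 0.541, 1.52, 0.170 and 1.52 CPM in middle-aged bladders, overlapping the young group, with a log2 fold change of 2.06 (SE 0.56, edgeR adjusted p = 0.0357). Pou2af1 stood at 0.0607 to 0.542 CPM in young bladders (median 0.296) and at 1.31, 0.254, 1.27, 0.509 and 1.88 CPM in middle-aged bladders, again overlapping, with a log2 fold change of 1.88 (SE 0.51, edgeR adjusted p = 0.0349). Both calls were thin. Without young replicate 3 the call of Mzb1 was lost. Without young replicate 1, 2 or 6, or without middle-aged replicate 1, 3 or 5, both were lost and the count fell to 1, which was Jchain. With all 6 groups in a single fit both were lost as well (edgeR adjusted p = 0.0795 for Mzb1 and 0.0885 for Pou2af1), and Sdc1 passed.

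The other 7 members did not pass the test at the early step. Derl3 had a log2 fold change of 0.50 (SE 0.32), Irf4 of 0.14 (SE 0.13), Prdm1 of 0.05 (SE 0.13) and Tnfrsf17 of 0.02 (SE 0.41). Xbp1 stood at -0.14 (SE 0.06) and Tnfrsf13b at -0.43 (SE 0.22). For Sdc1 the value was 0.23 (SE 0.08, edgeR adjusted p = 0.0855), which passed in the fit of 6 groups (0.0484) and without young replicate 4 (0.0301). The median over the 10 members was 0.18, against 0.00 over all genes tested.

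Across the late step, 9 of the 10 members were higher in old untreated than in middle-aged bladders, where 13% of the 17156 genes tested were higher. None was lower, where 11% of all genes were. Over all genes 2231 of the 4110 calls were higher, against 1670 of 4071 with limma on the deposited length-scaled table, where the members called were again 9. In 8 of the 10 the old and middle-aged values did not overlap, and such a separate rise was found in 7.61% of all genes tested. The median log2 fold change over the members was 2.02, against 0.00 over all genes. Mzb1, at 10.2 to 43.8 CPM in old bladders (median 15.6), had a log2 fold change of 4.56 (SE 0.56, edgeR adjusted p = 0.000115).

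Derl3, which belongs to the machinery that removes misfolded proteins from the ER, stood at 1.05, 0.668, 1.77, 0.735 and 0.965 CPM in middle-aged bladders. In old untreated bladders its lowest, median and highest values were 4.50, 8.42 and 27.3 CPM, a log2 fold change of 3.49 (SE 0.50, edgeR adjusted p = 0.000346). Derl3 lies at chr10:75893413-75895941, and its promoter is the one printed above with the full ER stress element. Xbp1, the transcription factor of the unfolded protein response, had a smaller fold change and was high at every age. It stood at 137, 133, 149.8, 149 and 133 CPM in middle-aged bladders and at 164 to 261 CPM in old untreated bladders (median 187). The groups did not overlap, and the log2 fold change was 0.49 (SE 0.10, edgeR adjusted p = 0.00371).

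Among the other transcriptional regulators, Pou2af1 had the largest fold of the 10 members. It stood at 15.8 to 56.8 CPM in old untreated bladders (median 29.3), a log2 fold change of 4.89 (SE 0.46, edgeR adjusted p = 1.54e-05). Irf4 stood at 5.99, 5.95, 6.45, 6.70 and 8.38 CPM in middle-aged bladders and at 15.3 to 47.6 CPM in old ones (median 18.5), a log2 fold change of 1.89 (SE 0.29, edgeR adjusted p = 0.000573). Prdm1 was expressed in the young bladder at 5.36 to 9.62 CPM and stood at 6.62, 8.68, 7.50, 7.46 and 7.83 CPM in the middle-aged group. In old untreated bladders it stood at 8.69 to 19.7 CPM (median 11.4), with the lowest of them just above the highest middle-aged bladder. Its log2 fold change was 0.74 (SE 0.17, edgeR adjusted p = 0.00767).

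The 2 receptors differed in how firmly their rise was measured. Tnfrsf13b, encoding TACI, stood at 3.18, 2.10, 2.49, 2.63 and 2.23 CPM in middle-aged bladders and at 7.85 to 17.6 CPM in old untreated bladders (median 8.96). Its log2 fold change was 2.15 (SE 0.24, edgeR adjusted p = 4.93e-05). Tnfrsf17, encoding BCMA, is a low member, with 3 to 157 counts per bladder over the 3 untreated ages. It stood at 0.393, 0.318, 0.637, 0.283 and 0.441 CPM in middle-aged bladders and at 0.479 to 2.99 CPM in old untreated bladders (median 0.778), where the groups overlapped. Its log2 fold change of 1.47 (SE 0.49, edgeR adjusted p = 0.045) fell to 0.82 without old untreated replicate 6 (edgeR adjusted p = 0.0608), and the call was lost in 8 of the 11 fits that left out 1 bladder.

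Sdc1, which encodes the surface proteoglycan syndecan-1, is used to sort plasma cells and is also made by epithelia. It did not pass the test at the late step, with a log2 fold change of -0.02 (SE 0.07, 95% interval -0.17 to 0.14). It stood at 266.5 to 369 CPM in young bladders (median 325), at 343, 353, 401, 405 and 380.0 CPM in middle-aged and at 322 to 444 CPM in old untreated bladders (median 359.5). The young bladders thus already held Sdc1 near its old level while Jchain there was at or below 2.29 CPM. In the fit of the 3 untreated ages, the other 9 members were higher in old untreated than in young bladders, where 14.5% of the 17376 genes tested were higher and 14.3% lower. The call of Tnfrsf17 there (1.47, edgeR adjusted p = 0.0271) was lost without old untreated replicate 6 (0.85, edgeR adjusted p = 0.11), without young replicate 2 (0.0604) or 6 (0.0638), and with the replicate block (0.0683). Sdc1 had a log2 fold change of 0.20 there (SE 0.08, edgeR adjusted p = 0.0634), close to the threshold. It passed with DESeq2 (adjusted p = 0.0429) and, by edgeR, with at least 10 counts in every bladder (0.048), in the fit of 6 groups (0.0361) and with the replicate block (0.0378), as well as without young replicate 3 or 4 or old untreated replicate 3.

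**Figure D2:**
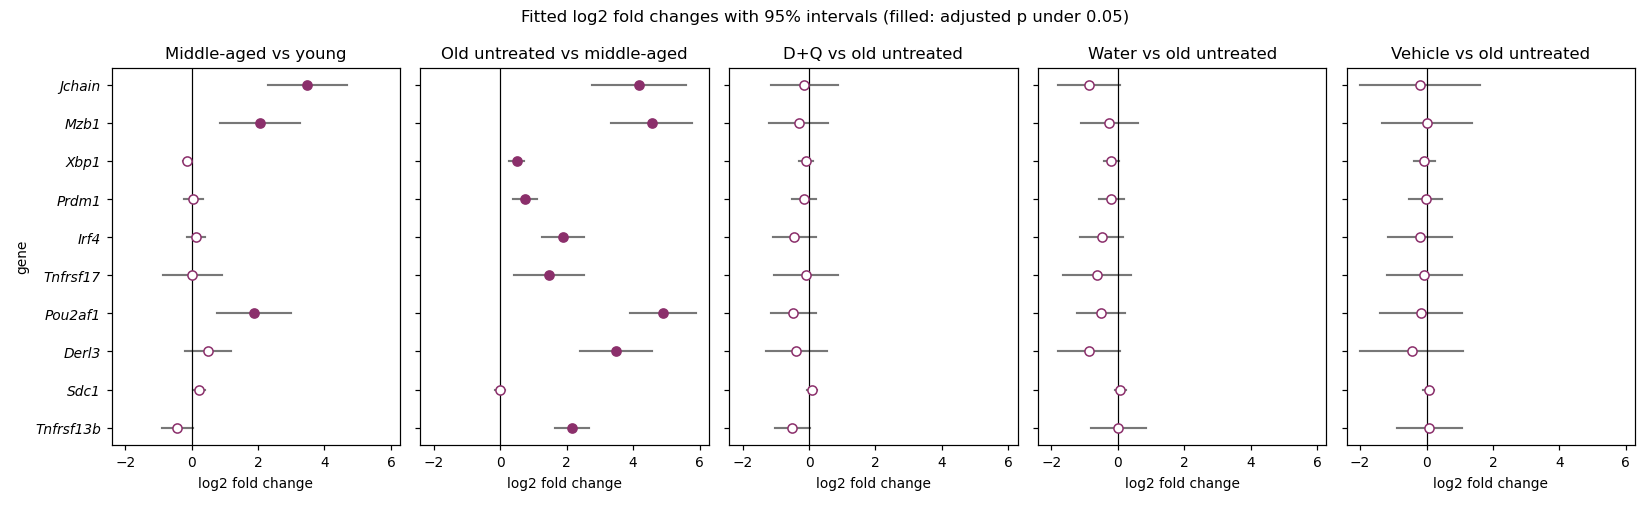
Fitted log2 fold changes (horizontal axis) of the 10 plasma cell genes (vertical axis) in 5 comparisons, with 95% intervals as bars; filled points have an edgeR adjusted p under 0.05. There are 3 filled points at the early age step, 9 at the late age step and none in the D+Q, water or vehicle comparison with old untreated bladders.

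Whether the late step differed from the early one was tested as the difference of the 2 log2 changes in the fit of the 3 ages. The early step ran from 2 to 10 months and the late step, which is longer, from 10 to 26 months. The changes were not scaled to time, so a difference above 0 does not show a faster change per month. The difference was above 0 in 5 of the 10 members, namely Xbp1, Irf4, Pou2af1, Derl3 and Tnfrsf13b, and below 0 in none that passed, where 7.17% of the 17376 genes tested passed in that direction and 3.67% in the other. Over all genes 1246 of 1884 calls were above 0, against 828 of 1616 with limma on the deposited table, which called 5 members as well. It was 2.59 for Tnfrsf13b (SE 0.47, edgeR adjusted p = 0.00368), 3.01 for both Derl3 and Pou2af1, 1.77 for Irf4 and 0.65 for Xbp1. For Jchain it was 0.74 with a 95% interval from -1.55 to 3.02 (edgeR adjusted p = 0.72), which does not show that its steps were equal. Tnfrsf13b was the only member still called without middle-aged replicate 1 and without middle-aged replicate 2, since the count then fell to 1. The call of Pou2af1 (edgeR adjusted p = 0.0432) was the least firm, lost in 10 of the 17 fits that left out 1 bladder and without a filter on low counts (0.0516). That of Derl3 (edgeR adjusted p = 0.0305) was lost in 5 of the 17, and both were lost with all 6 groups in a single fit and with the replicate block.

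Gavage did not move any member past the threshold. Between D+Q-treated and old untreated bladders, 0 of the 10 members passed in either direction, and 0% of the 17037 genes tested did. At an unadjusted p under 0.05 edgeR passed 0 members and 12.9% of all genes, and DESeq2 called 185 genes but 0 members. Jchain stood at 71.3 to 370.4 CPM in D+Q-treated bladders (median 290.5), within the span of the old untreated values except for its lowest bladder. Its log2 fold change was -0.14, with a 95% interval from -1.14 to 0.86. It was 0.40 without old untreated replicate 6 and 0.06 without D+Q replicate 6, so that its sign rested on single bladders.

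Mzb1 stood at 5.77 to 24.7 CPM (median 19.6, log2 fold change -0.32, 95% interval -1.19 to 0.56) and Derl3 at 3.12 to 11.5 CPM (median 9.65, -0.38, -1.29 to 0.53). Irf4 stood at 8.37 to 21.4 CPM (median 19.7, -0.44, -1.08 to 0.20) and Pou2af1 at 9.91 to 29.8 CPM (median 24.7, -0.48, -1.16 to 0.21). D+Q replicate 6 had the lowest value of the group in these 4 and in 9 of the 10 members, Sdc1 being the exception. Tnfrsf13b, at 4.40 to 10.9 CPM (median 7.35), had the value furthest from 0, at -0.50 (95% interval -1.04 to 0.03, edgeR adjusted p = 0.414). The intervals of Xbp1 (-0.29 to 0.11), Prdm1 (-0.52 to 0.21) and Sdc1 (-0.07 to 0.25) were the narrowest, and that of Tnfrsf17 ran from -1.05 to 0.86.

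Water and vehicle gavage gave no called member either. Between water-treated and old untreated bladders 0 of the 10 members passed, where 1% of the 17250 genes tested did, and 0 members passed at an unadjusted p under 0.05, which 16% of all genes did. Jchain stood at 180.1, 183, 189, 101 and 139 CPM after water, with a log2 fold change of -0.86 (95% interval -1.80 to 0.07) that shrank to -0.32 without old untreated replicate 6. Between vehicle-treated and old untreated bladders 0 members passed, where 0% of the 17440 genes tested did, and again 0 members had an unadjusted p under 0.05, beside 8.39% of all genes. The log2 fold change of Jchain after vehicle was -0.20 (95% interval -2.01 to 1.62) and turned to 0.21 without vehicle replicate 1 and to 0.35 without old untreated replicate 6. DESeq2 called 703 genes after water and 132 after vehicle, and 0 members in either.

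The vehicle group held the bladder in which these genes were lowest. Jchain stood at 5.58 CPM in vehicle replicate 1 and at 238.5, 403 and 351 CPM in the other 3. Derl3 stood at 0.585 CPM there and at 9.12, 14.7 and 9.58 CPM in the others, which puts this bladder within the young range for that gene. Mzb1 (4.85 against 13.7 to 51.3 CPM), Pou2af1 (4.63 against 21.0 to 61.2) and Tnfrsf13b (3.58 against 7.95 to 24.7) were also lowest there, but above every middle-aged bladder. Among all 21 bladders of 26 months, vehicle replicate 1 had the lowest value of 7 of the 10 members; the exceptions were Prdm1, Tnfrsf17 and Sdc1. Its B-cell identity genes summed to 72.2 CPM, which was the third lowest, and its T cell genes to 18.8 CPM, which was the lowest, against 32.5 to 122 CPM in the other 20. Macrophage genes (779 against 904 to 1495 CPM) and ER secretory genes (3691 against 3899 to 4973 CPM) were also lowest there by sum. So were the BAFF and APRIL system genes (23.7 against 27.2 to 51.4 CPM) and the skeletal muscle genes (320.6 against 379.8 to 586.5 CPM).

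The direct comparisons among gavaged bladders gave the same count. D+Q against vehicle passed 0 of the 10 members, where 0% of the 17267 genes tested passed and where 4.18% had an unadjusted p under 0.05, with 0 members among them. DESeq2 called 11 genes there and 0 members. Jchain had a log2 fold change of 0.06 (95% interval -1.61 to 1.72), which became -0.35 without vehicle replicate 1. D+Q against water also passed 0 members, where 0% of the 17161 genes tested passed and 7.82% had an unadjusted p under 0.05. Jchain had a log2 fold change of 0.72 there (SE 0.34, 95% interval -0.02 to 1.46, edgeR adjusted p = 0.651), and its value stayed between 0.59 and 0.91 with any 1 bladder left out. Xbp1 was the 1 member under that unadjusted limit, with a log2 fold change of 0.10 (SE 0.04, edgeR adjusted p = 0.594). DESeq2 called 69 genes and 0 members. All these comparisons draw on shared groups, and their values are not independent of each other.

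How the members varied from bladder to bladder was described by the Pearson correlation of log2(CPM + 0.1) with Jchain over the 32 bladders after each group mean was removed. The bladders share library depth and base composition effects, and the values carry no test. Derl3 followed Jchain most closely with r = 0.86, before Pou2af1 (0.782), Mzb1 (0.769), Irf4 (0.734), Xbp1 (0.645), Tnfrsf13b (0.605), Tnfrsf17 (0.523) and Prdm1 (0.419). For Sdc1 r was 0.0924. Vehicle replicate 1 carried part of this, since without it r fell to 0.696 for Derl3, 0.672 for Pou2af1 and 0.456 for Xbp1, while that of Mzb1 was 0.742. The likeness was not seen in the 6 young bladders alone, where several members were near the floor. There r ran from -0.443 (Pou2af1) to 0.494 (Mzb1) and was -0.0906 for Derl3. It ran from 0.196 (Sdc1) to 0.984 (Derl3) in old untreated and from -0.188 (Sdc1) to 0.991 (Pou2af1) in D+Q-treated bladders.

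**Figure D3:**
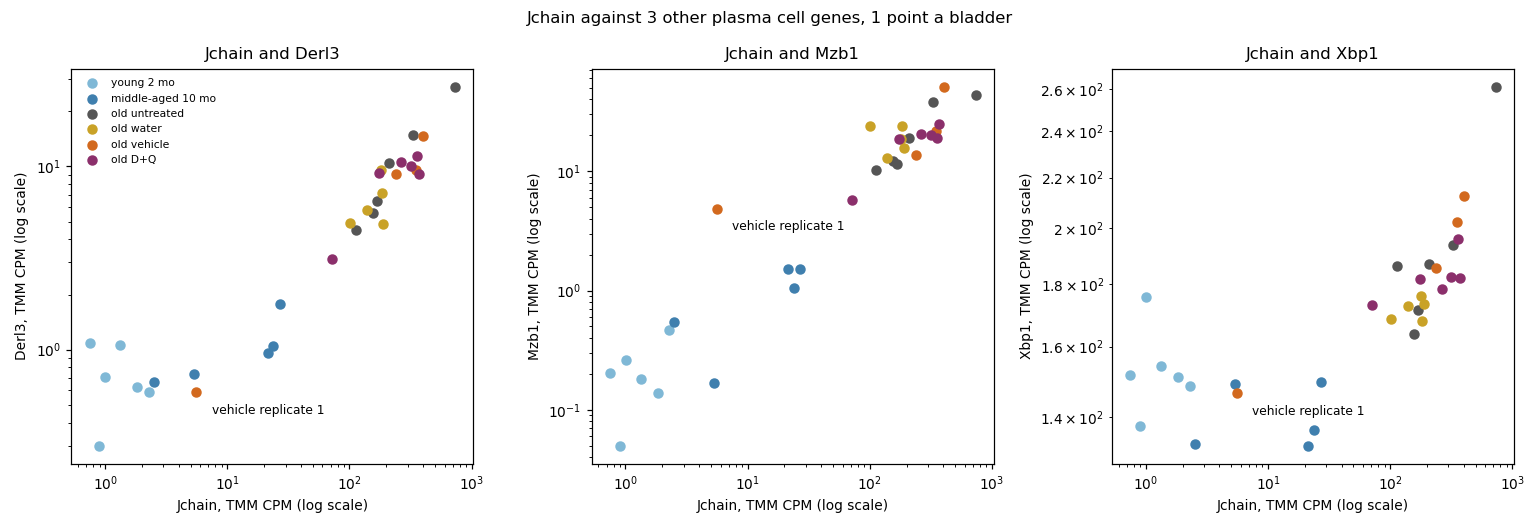
TMM CPM of Jchain (horizontal axes) against Derl3, Mzb1 and Xbp1 (vertical axes), all on log scales, with 1 point for each of the 32 bladders and colours for the groups; the bladder with 0 counts of Mzb1 is drawn at 0.05. By Jchain, vehicle replicate 1 lies among the middle-aged bladders (5.58 CPM), with Xbp1 in their range, Derl3 below them (0.585 CPM) and Mzb1 above them (4.85 CPM).

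The genes nearest to each member were then listed among 17930 genes with enough counts, with immunoglobulin variable segments left out. Nearest to Jchain were Ighm (r = 0.965), Igkc (0.935), Derl3 (0.86), Ighg2b (0.805) and Fut1 (0.788). Without vehicle replicate 1 the first 5 were Ighm (0.926), Igkc (0.875), Mzb1 (0.742), Ighg2c (0.709) and Derl3 (0.696), with Ighg2b at 0.63 and Fut1 at 0.611. Nearest to Xbp1 were Txndc5, Creld2, Sdf2l1, Ccdc134 and Hsp90b1 (0.887 to 0.8), among which Txndc5, Creld2, Sdf2l1 and Hsp90b1 encode ER proteins. Nearest to Prdm1 were Edem1, Irf4, Txndc5, Adcy7 and Xbp1 (0.808 to 0.706). Nearest to Irf4 were St6gal1 (0.865), Gpr55 (0.855), Slamf7 (0.838), Edem1 (0.835) and Oosp1, where Slamf7 encodes a surface receptor of plasma cells. Without vehicle replicate 1, 4 of the 5 nearest to Xbp1, 4 of 5 to Prdm1 and 3 of 5 to Irf4 were among those named, with Txndc11 new to Xbp1, Slamf7 to Prdm1, and Lipc and Prdm1 to Irf4.

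The neighbours of Sdc1 were of another kind. They were Lypd3, Nectin1, Trim29, Cdh1 and Dnaja3 (0.852 to 0.814), where Cdh1 encodes the epithelial cadherin and Nectin1 a junction protein. The median r of Sdc1 was 0.427 with the 16 urothelial genes and 0.000901 with the 12 immunoglobulin constant region genes. In the other 9 members the median r with the urothelial genes was between -0.326 and -0.0111, and with the constant region genes between 0.29 and 0.652. Without vehicle replicate 1 these ran from -0.43 to -0.0525 and from 0.238 to 0.528, against 0.445 and -0.0719 for Sdc1, whose 5 nearest genes then were Lypd3, Ano1, Nectin1, Trim29 and Tmc4. Over all 32 bladders the median r with B-cell identity genes exceeded that with constant regions in some members. These were Tnfrsf13b (0.706 against 0.553), Mzb1 (0.599 against 0.533), Pou2af1 (0.631 against 0.575), Irf4 (0.578 against 0.567) and Prdm1 (0.3 against 0.29). It was lower in Jchain (0.442 against 0.632), Derl3 (0.489 against 0.652), Xbp1 (0.233 against 0.544), Tnfrsf17 (0.442 against 0.45) and Sdc1 (-0.24). Without vehicle replicate 1 each member kept its side.

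**Figure D4:**
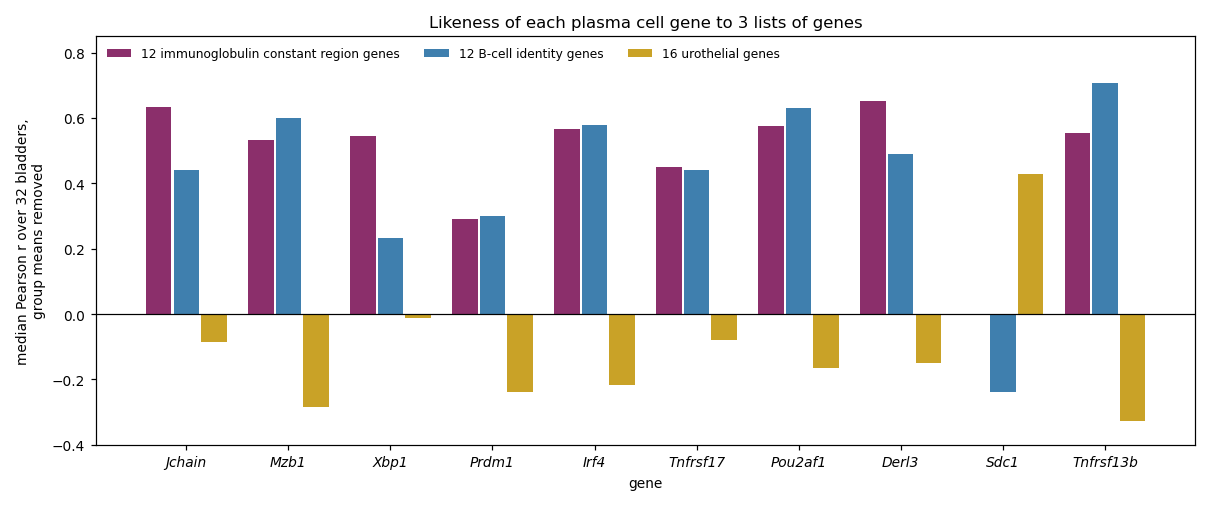
Median Pearson r over 32 bladders with group means removed (vertical axis) of each plasma cell gene (horizontal axis) with 12 immunoglobulin constant region genes, 12 B-cell identity genes and 16 urothelial genes (bars). Sdc1 is the 1 member whose bar is above 0 for the urothelial genes (0.427), and its bar for the constant regions is at 0.000901.

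The products and partners of plasma cells moved at the late step with the members. Of the 12 immunoglobulin constant region genes 10 were higher in old untreated than in middle-aged bladders, 0 were lower, and the median log2 fold change was 4.73. Ighm stood at 245.5, 41.2, 226.8, 65.3 and 246 CPM in middle-aged bladders and at 1618 to 10980 CPM in old untreated bladders (median 2643). The largest fold changes were those of Ighe, which had 0 counts in all 5 middle-aged bladders and 4 to 3096 counts in the old untreated ones, and of Ighg1, with 7.84 (SE 1.72, edgeR adjusted p = 0.00556). With at least 10 counts in every bladder the count was 6. Constant region genes share sequence, so the split of reads between them is uncertain. In the early step 6 of the 9 constant region genes tested were already higher and 0 were lower, beside the 3 members.

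Of the 35 genes of the ER secretory pathway and the unfolded protein response, 23 were higher in old untreated than in middle-aged bladders and 0 were lower, with a median of 0.18. Sdf2l1 (0.88, SE 0.14, edgeR adjusted p = 0.000757) and Creld2 (0.69, SE 0.17, edgeR adjusted p = 0.0101) moved most. At the early step 5 of the 35 were lower and 0 were higher. From young to old untreated bladders, in the fit of the 3 ages, 13 were higher and 4 lower, with a median of 0.11.

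The cytokine system of the 2 receptors moved in part. Tnfsf13b, encoding BAFF, was higher in old untreated than in middle-aged bladders with 18.7 ± 1.78 (SD, n = 6) against 13.7 ± 1.21 CPM (SD, n = 5), a log2 fold change of 0.47 (SE 0.08, edgeR adjusted p = 0.00102). Tnfsf13, encoding APRIL, stood at 9.63 ± 1.18 against 9.002 ± 0.609 CPM and did not pass (0.12, SE 0.09, edgeR adjusted p = 0.361). Tnfrsf13c, which encodes the BAFF receptor of B cells, rose from 0.438 ± 0.235 to 7.50 ± 3.74 CPM (4.11, SE 0.43, edgeR adjusted p = 3.58e-05). Of 15 tested genes of plasma cell survival and homing 11 were higher and 1 was lower. Cd27 (1.84, SE 0.21, edgeR adjusted p = 5.75e-05) and Cxcr4 (1.67, SE 0.18, edgeR adjusted p = 4.43e-05), which encodes the receptor of CXCL12, moved most.

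The transport of antibody across epithelium did not pass in the same comparison. Pigr, encoding the polymeric immunoglobulin receptor, stood at 8.31 CPM (median) in middle-aged and 11.3 CPM in old untreated bladders, with a log2 fold change of 0.85 (SE 0.34, edgeR adjusted p = 0.0874). Fcgrt, encoding the IgG receptor of epithelium and endothelium, stood at 106 ± 4.40 (SD, n = 5) and 102 ± 8.91 CPM (SD, n = 6), with -0.04 (SE 0.05, edgeR adjusted p = 0.635).

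Other immune cell markers rose beside the members at the late step. Of 12 B-cell identity genes 10 were higher and 0 were lower, led by Ms4a1 (5.00, SE 0.42, edgeR adjusted p = 7.66e-06) and Pax5 (4.67, SE 0.54, edgeR adjusted p = 6.79e-05), which encode CD20 and the B-cell commitment factor. They summed to 26.2 to 37.5 CPM in middle-aged and 111 to 299 CPM in old untreated bladders, and no gene was at 0 in either. Of 8 tested germinal centre and opposing factors 5 were higher and 0 were lower, led by Spib (4.29, SE 0.32, edgeR adjusted p = 3.71e-06) and Mki67 (2.20, SE 0.26, edgeR adjusted p = 9e-05). All 9 T cell genes were higher, led by Cd8a (3.43, SE 0.40, edgeR adjusted p = 7.26e-05) and Cd8b1 (3.42, SE 0.35, edgeR adjusted p = 3.06e-05), and they summed to 13.4 to 17.1 against 51.5 to 122 CPM.

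Of 8 macrophage genes 7 were higher at this step, led by C1qb (0.95, SE 0.16, edgeR adjusted p = 0.00121) and C1qa (0.83, SE 0.15, edgeR adjusted p = 0.00142). From young to old untreated bladders 3 of the 8 were higher and 0 lower. Of 7 tested plasmacytoid dendritic cell genes 4 were higher at the late step, led by Ccr9 (1.06, SE 0.28, edgeR adjusted p = 0.0152) and Irf7 (0.95, SE 0.13, edgeR adjusted p = 0.000255). The other 3 did not pass, and 2 of the 7 had a change below 0. Ccr9 is also counted in the list of survival and homing. Of the 16 urothelial genes 1 was higher, Krt14 (2.76, SE 0.87, edgeR adjusted p = 0.0354), and 7 were lower, among them Epcam (-0.29, SE 0.05, edgeR adjusted p = 0.000816). Myh11 (-0.24, SE 0.07, edgeR adjusted p = 0.0301) was the 1 smooth muscle gene of 6 that was lower, 0 of 5 adipocyte genes passed, and of 4 tested skeletal muscle genes Myh1 was higher (1.26, SE 0.29, edgeR adjusted p = 0.00803) and Ckm lower (-0.33, SE 0.06, edgeR adjusted p = 0.00171). After D+Q against old untreated bladders, 0 genes of any of these lists passed. At an unadjusted p under 0.05, 7 of the 12 B-cell identity genes and 7 of the 9 T cell genes passed. That limit was met by 12.9% of all genes and 0 members. Among other lists 9 of 35 ER, 6 of 15 homing, 5 of 16 urothelial and 4 of 7 plasmacytoid dendritic cell genes did. The median log2 fold change of the T cell genes was -0.65 after D+Q, -0.61 after water and -0.64 after vehicle. That of the B-cell identity genes was -0.66, 0.28 and 0.08 in the same order, all against old untreated bladders. Between D+Q and vehicle 0 genes of either list passed at this limit. Between D+Q and water 2 B-cell identity genes and 0 T cell genes did, and none passed after adjustment. The median of the B-cell identity genes was -0.80 for D+Q against vehicle and -0.95 against water. Of these 12 genes 9 and 11 were below 0. That of the T cell genes was -0.19 and -0.11. DESeq2 called 3 T cell genes lower after D+Q. After water against old untreated bladders 2 T cell genes were called in 1 of the 8 alternative settings, and after vehicle 0 in each setting. The main fit called 1 ER gene lower and 2 urothelial genes higher after water. With all 6 groups in a single fit, 1 urothelial gene was higher and 1 lower at the late age step. The part of these cell types in the level of each member was not tested.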

How the data were processed

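Bulk RNA sequencing of 32 whole bladders of female C57BL/6 mice was used, in the 6 groups that the labels give by age and treatment. For these files the authors mapped reads with STAR 2.7.3 against mm10, per the labels and the study's methods, and deposited unnormalized counts per gene from featureCounts beside a length for every gene. The deposited normalized table holds log2 values of the count plus 1 divided by gene length, scaled so that the linear values sum to a fixed total in each bladder. The strandedness of counting is not given in the sources used here.

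Members and gene lists were chosen with earlier results of these data known. Symbols were taken from the annotation used here, which named 32158 of the 32285 identifiers. Counts were compared with edgeR 4.0.16 in R 4.3.3 (TMM, filterByExpr, quasi-likelihood test, Benjamini-Hochberg over all genes tested, adjusted p under 0.05). Each fit held the 2 groups compared, or the 3 untreated ages together. CPM used TMM factors over all 32 bladders, and TPM used the exon lengths. All 10 members were named. From the other lists the 2 genes with the largest called change from middle-aged to old untreated bladders were named, and the BAFF, APRIL and antibody transport genes in full. For Jchain, Xbp1, Prdm1, Irf4 and Sdc1 the 5 nearest genes were named. Intervals are 95% and, like the floor of 3 counts, do not cover amplification bias, since no molecular identifiers are named in the sources. The labels give each bladder as a separate sample, and p-values measure the spread between these samples.

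Recovery of known changes by the fits was tested on simulated data. Other settings tried were DESeq2 1.42.0, limma 3.58.1 with trend on the deposited log2 table, a fit of all 6 groups, a block by replicate number, and omission of single bladders. The filter was also dropped, or raised to 10 counts in each bladder, and immunoglobulin genes were removed from library sizes and TMM. For the likeness to Jchain, log2(CPM + 1) and old bladders alone were tried, and leaving out vehicle replicate 1 was added after seeing the data, as were a block by the number in the description and TPM levels without old untreated replicate 6. Figures were drawn with matplotlib 3.10.9.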

Additional observations from a re-analysis of the deposited data

Results flagged for a closer look

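Within each group, the member values were examined for a bladder far from the rest by Dixon's 95% limit on the gap over the range. Of 60 groups of values 10 passed, where chance alone flags about 1 in 20 of independent, normally distributed sets. The 60 are not independent, since the 10 genes were read in the same bladders, so the count cannot be weighed against that rate. Old untreated replicate 6 was far above the others for Jchain (734 CPM, next 329.7), Xbp1 (261 CPM, next 194), Prdm1 (19.7 CPM, next 12.7) and Tnfrsf17 (2.99 CPM, next 1.05). D+Q replicate 6 was far below the others for Mzb1 (5.77 CPM, next 18.7), Prdm1 (7.98 CPM, next 10.98), Irf4 (8.37 CPM, next 18.0) and Derl3 (3.12 CPM, next 9.05). Sdc1 stood at 444 CPM in old untreated replicate 5 (next 361), and Tnfrsf13b at 5.88 CPM in young replicate 2 (next 3.16). Vehicle replicate 1 did not pass this limit in its group of 4, although Jchain and Derl3 were lower there than in each of the other 20 bladders of its age.

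The log2 change from middle-aged to old untreated bladders differed from that from young to middle-aged bladders, by the test of the difference itself, in 5 members. The difference was 0.65 for Xbp1, 1.77 for Irf4, 3.01 for Pou2af1, 3.01 for Derl3 and 2.59 for Tnfrsf13b. The later step is the longer one, and these values were not scaled to time.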

How the results depend on the processing

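The count of members called at the late age step was 7 to 9 under the alternative settings and 8 or 9 with any 1 bladder left out. The 7 came with at least 10 counts in every bladder, where 8 members were tested. The counts for D+Q, water and vehicle stayed at 0 in every setting and with any bladder left out. At the early step the count of 3 fell to 1 both with at least 10 counts in every bladder, where 6 members were tested, and with limma on the deposited table, was 2 with all 6 groups in a single fit, where Jchain and Sdc1 were called, and ran from 1 to 4 with 1 bladder left out. The count for the difference between the steps, 5, fell to 3 with at least 10 counts in every bladder and with all 6 groups in a single fit, and ran from 1 to 5 with 1 bladder left out. The causes were not tested beyond the smaller number of members tested. The median r with Jchain, 0.645, was 0.664 with log2(CPM + 1), 0.798 in old bladders alone and 0.557 without old vehicle replicate 1.

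The replicate number as a block was tried because the labels repeat the numbers across groups. Same-numbered bladders did not deviate together (r from -0.294 to 0.154 over the pairs of 7 comparisons), and no comparison had every pair over 0.1. The labels number 6 bladders of 3 groups differently in the title, used here, and in the description. By the description numbers, examined after seeing the data, r ran from -0.294 to 0.206, and again no comparison had every pair over 0.1, so neither numbering was taken as a pairing. With the block the counts were 3 at the early step, 8 at the late step, 9 from young to old and 3 for the difference between steps, and 0 in each gavage comparison. Tnfrsf17 lost its call at the late step (edgeR adjusted p = 0.0963) and from young to old (0.0683), where Sdc1 gained one (0.0378). With a block by description number the counts were 3, 9, 10 and 5 in the same order and 0 in each gavage comparison. At the early step Mzb1 then lost its call (0.154) and Sdc1 gained one (0.0485), and signs turned in Prdm1 (-0.0061) and Tnfrsf17 (-0.073) at the early step and Sdc1 (0.015) at the late step. Over all genes the calls at the early step went from 1811 to 716 with the block, 893 with the block by description number and 2858 with all 6 groups in a single fit, and those at the late step from 4110 to 2519 with all 6 groups in a single fit. After water they went from 173 to 703 with DESeq2, to 99 without a filter, and to 0 with the block, with limma and with all 6 groups. D+Q against water went from 0 to 1 with the block, which was no member. The sign turned with the block in Jchain after D+Q (0.15) and after vehicle (0.17), and in Tnfrsf17 at the early step (-0.11) and after D+Q (0.13). Tnfrsf17 also turned with DESeq2 at the early step (-0.0025) and with limma after D+Q (0.12). None of these values was called in any setting.

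With 1 bladder left out, log2 fold changes that crossed 0 were, after D+Q against old untreated, those of Jchain (-0.30 to 0.40), Derl3 (-0.54 to 0.087), Xbp1 (-0.14 to 0.012), Prdm1 (-0.24 to 0.025) and Tnfrsf17 (-0.28 to 0.54). For the other gavage comparisons 3 of the 10 members changed sign for water and 9 for vehicle against old untreated, 10 for D+Q against vehicle and 4 for D+Q against water. Jchain crossed 0 for vehicle against old untreated (-0.52 to 0.35) and D+Q against vehicle (-0.35 to 0.38). At the early step those of Prdm1 (-0.015 to 0.14) and Tnfrsf17 (-0.19 to 0.29) did, and at the late step that of Sdc1 (-0.074 to 0.021). Over the settings, the genes called at the late step numbered 6 to 11 of the constant regions, 15 to 26 of the ER list and 2 to 8 of the urothelial list. Groups of 4 to 6 bladders and the spread within the old groups limit the gavage comparisons, where the 95% interval of Jchain after D+Q allows a log2 change from -1.14 to 0.86.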

Other observations

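The members differed in their ratios in vehicle replicate 1. In the other 20 bladders of 26 months the CPM of Jchain was 18.9 to 40.9 times that of Derl3 (median 25.8), 4.21 to 18.8 times that of Mzb1 (median 12.3) and 3.64 to 14.5 times that of Pou2af1 (median 10.1). In vehicle replicate 1 these ratios were 9.54, 1.15 and 1.21. Ighm stood at 118 CPM there against 985 to 10980 CPM in the other 20, Igkc at 51.5 against 484 to 5790 CPM and Igha at 1.59 against 14.8 to 423 CPM. Urothelial genes summed to 7883 CPM, within the 6967 to 8996 CPM of the others.

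The mucosal isotype did not follow Jchain alone. In old untreated bladders Igha stood at 42.8, 39.8, 155, 32.9, 423 and 377 CPM, and its highest value was in replicate 5, where Jchain stood at 209.7 CPM against 734 in replicate 6. Pigr stood at 127 CPM in D+Q replicate 5, while the other 20 bladders of 26 months stood at 4.93 to 33.9 CPM.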
